A study of Mus musculus with 10 samples.

Results

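The phagocyte NADPH oxidase was examined through 6 of its subunit genes, chosen by their symbols: Cybb, Cyba, Ncf1, Ncf4, Rac1 and Rac2. The files held 28 transcripts of these genes, out of 95912 transcripts of 33393 genes. RNA had been sequenced from CD34- HSCs, sorted as Lin- Sca1+ cKit+ CD34- Flt3- cells from the femurs of individual 8-week-old C57BL/6 mice. Libraries from 5 Vav1-iCre; Reg1flox/flox mice (Reg1Δ/Δ) were compared with libraries from 5 Reg1flox/flox control mice. All mice carried the floxed Regnase-1 gene (Zc3h12a), and only the Reg1Δ/Δ mice carried iCre. The Vav1 promoter drives iCre across blood cells, so the gene is deleted in mature blood cells of these mice as well as in HSCs. The sample names and the group sizes given by the study place 3 libraries per group in the first experiment and 2 per group in the second. Relative abundance is given as TPM, a length-scaled share of all transcripts in a library, and TPM values were added up over the transcripts of each gene. Since TPM is a relative measure, it tells nothing of sequencing depth, and no counting error is given for any value.

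The oxidase moves electrons from NADPH across a membrane onto oxygen and thereby makes superoxide, which phagocytes use to kill microbes. Its membrane core, a flavocytochrome, is a pair of proteins: gp91phox (Cybb, also called NOX2), which carries the electrons, and p22phox (Cyba), which stabilizes gp91phox. On activation, p47phox (Ncf1, the organizer) and p40phox (Ncf4, which binds a phosphoinositide of the phagosome) move from the cytosol to this core together with a GTP-bound Rac. Rac2 is largely restricted to blood cells, whereas Rac1 is made in most cells, and both also control the actin cytoskeleton, adhesion and homing of HSCs. Reactive oxygen species are known to push HSCs out of quiescence.

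Zc3h12a, the deleted gene, was higher and not lower in the libraries labelled Reg1Δ/Δ, with 2.71 ± 0.751 against 1.57 ± 0.278 TPM in controls of the first experiment (SD, n = 3) and 9.39 ± 1.23 against 3.78 ± 3.24 TPM in the second (SD, n = 2). Values per transcript do not resolve single exons, so they do not show whether the deleted exons were read. Directions below are those of the libraries as labelled. The study also measured Regnase-1 mRNA in sorted cells by qRT-PCR, which is not analysed here. The labels of the sorted cells were also set against their markers. Procr, an HSC surface receptor, ranged from 19.8 to 37.3 TPM in controls and from 0.1 to 1.4 TPM in the libraries labelled Reg1Δ/Δ. Fgd5, another HSC marker, was at 0.2 TPM or less in all of the latter, so both transcripts were nearly absent there. In all, 7 of 8 stem cell markers fell, against 37.9% of all tested genes. Of the genes for proteins the sort selected for, Kit was among those that fell, with 105.9 to 366.8 TPM in controls and 56.1 to 115.6 TPM under the Reg1Δ/Δ label (−1.39, adjusted p = 0.000108). Ly6a was at 68.1 to 108.4 TPM in controls and at 50.9 to 449.0 TPM under the Reg1Δ/Δ label (0.92, adjusted p = 0.155). Controls held Cd34 mRNA at 142 to 236 TPM in experiment 1 and at 51.9 and 82.0 TPM in experiment 2 although the gate given in the labels excluded CD34+ cells. The labels and the study's main text name CD34- HSCs, whereas the heading of 1 supplementary table of the RNA-seq names CD34+ HSCs. The libraries labelled Reg1Δ/Δ held it at 9.5 to 19.8 TPM, and it fell by 3.02 on the log2 scale (adjusted p = 1.09e-05). Flt3, a progenitor receptor, was at 11.0 to 33.9 TPM in controls and at 1.2 to 2.2 TPM under the Reg1Δ/Δ label (−2.85, adjusted p = 3.01e-06). Protein-coding transcripts made up 46.2% to 49.1% of TPM in the first experiment and 73.5% to 81.1% in the second.

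Promoters of Cybb and Ncf1 are shown because, of the 3 subunits with a RefSeq window, they held matches to the motifs searched. They are the 250 bases before each start site, from RefSeq on GRCm38.p6, 5′ to 3′ on the minus strand. They lie at chrX:9469325-9469574 and chr5:134229626-134229875. Capitals mark matches, on either strand, to GAGGAA (the core of PU.1 sites), an interferon response element (a pair of GAAA with any 2 bases between them), TTCNNNGAA (a STAT element) and CCAAT.
Cybb: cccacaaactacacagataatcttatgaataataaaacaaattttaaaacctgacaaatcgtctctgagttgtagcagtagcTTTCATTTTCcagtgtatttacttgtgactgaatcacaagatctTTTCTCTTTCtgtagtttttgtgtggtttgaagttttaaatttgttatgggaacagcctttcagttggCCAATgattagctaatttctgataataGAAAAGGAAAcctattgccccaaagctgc
Ncf1: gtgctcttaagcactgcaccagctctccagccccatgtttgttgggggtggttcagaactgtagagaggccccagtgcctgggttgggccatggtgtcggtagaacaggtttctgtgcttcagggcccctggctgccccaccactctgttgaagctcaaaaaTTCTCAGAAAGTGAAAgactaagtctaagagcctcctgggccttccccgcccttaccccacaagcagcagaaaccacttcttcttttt
Within these bases Cybb held 3 matches to the interferon response element, starting 168, 124 and 29 bases before the start site, and CCAAT 56 bases before it. A match to GAGGAA lay at base 10 after the Cybb start, outside the stretch shown. Ncf1 held the interferon response element 82 bases before its start, overlapping by 3 bases a TTCNNNGAA match 88 bases before it whose pattern matches on both strands. Of 32851 RefSeq windows of 300 bases (250 before and 50 after a start), 3.44% held the interferon response element, 28.3% GAGGAA, 8.3% TTCNNNGAA and 37.4% CCAAT. The Cyba window matched none of these letters, which says nothing about the binding of any factor. No window was at hand for Ncf4, Rac1 and Rac2. The matches are letters in a window and were not tested against the expression values.

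The mRNAs of all 6 subunits were lower in the libraries labelled Reg1Δ/Δ. Cybb fell most (9.59-fold), Ncf4 and Ncf1 followed (4.66-fold and 4.53-fold), then Rac2 (2.94-fold) and Cyba (1.87-fold), and Rac1 fell least (1.31-fold). These folds come from limma, fitted to log2(TPM + 1) of 12874 genes with the experiment as covariate, and understate the change of weakly expressed genes. All 6 passed an adjusted p under 0.05 as lower, as did 37.9% of all tested genes, and none passed as higher, as did 15% of tested genes. A fall of more than 2-fold was called for 4 of the 6 and for 20% of tested genes. In both experiments every library labelled Reg1Δ/Δ lay below every control for each of the 6, a pattern that 31.4% of tested genes shared. The opposite pattern held for 12.7% of tested genes and for no subunit. The exact permutation test within experiments, two-sided, gave p = 0.0167 for each subunit, the smallest value that its 120 assignments allow. In these bulk libraries, fewer cells that express a gene and less of its RNA per cell cannot be told apart. The median log2 difference of all tested genes was −0.25, and it moved up by 0.40 under quantile normalization and by 0.30 under median-of-ratios scaling. All 6 subunits stayed lower under both, but Rac1 reached only −0.04 on the log2 scale under the latter (adjusted p = 0.745).

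**Figure D1:**
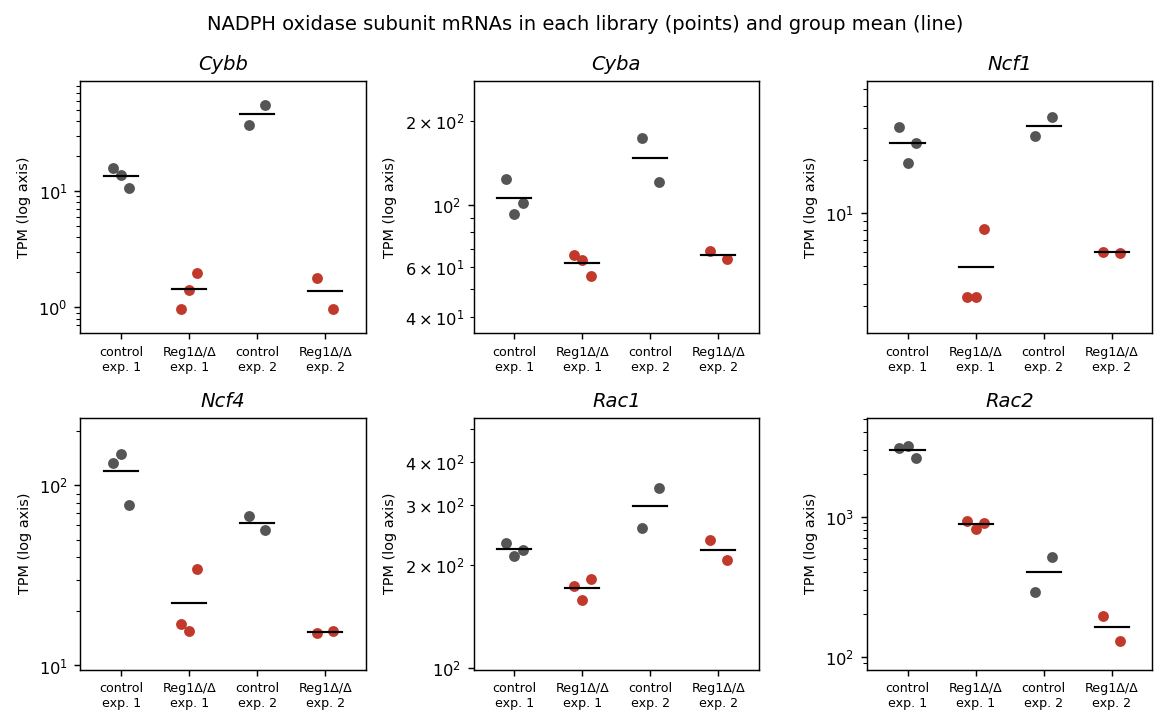
TPM of each subunit gene (log axis) in every library, by genotype and experiment; points are libraries and lines are group means (n = 3 per group in experiment 1, n = 2 in experiment 2). For each gene, the libraries labelled Reg1Δ/Δ (red) lie below the controls (grey) of the same experiment, with the widest gap for Cybb and the narrowest for Rac1.

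Cybb (ENSMUSG00000015340, chrX:9435252-9487771, minus strand, GRCm38), the catalytic subunit, stood at 15.9, 13.7 and 10.6 TPM in controls of the first experiment and at 37.3 and 55.1 TPM in those of the second. In the libraries labelled Reg1Δ/Δ it was at 1.0, 1.4 and 2.0 TPM in the first experiment and at 1.8 and 1.0 TPM in the second. The controls of the second experiment were 3.45 times those of the first, while the libraries labelled Reg1Δ/Δ were alike in both and near the limit of 1 TPM used for filtering. The log2 difference was −3.26 ± 0.33 (SE; 95% interval −4.00 to −2.52; limma adjusted p = 3.2e-05), and 1.34% of tested genes had a more negative one. Taken alone, the first experiment gave −2.56 and the second −4.31 (adjusted p = 2.24e-04 and 0.0237). The difference between the experiments, −1.74, had an unadjusted p of 0.00147 in limma's interaction test and an adjusted p of 0.126. No subunit passed that test after adjustment, which 0.443% of tested genes did.

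Cyba (ENSMUSG00000006519, chr8:122424776-122432930, minus strand), the partner that gp91phox needs for stability, was more abundant. Controls held 123.7, 92.8 and 101.8 TPM in the first experiment and 173.9 and 120.8 TPM in the second, against 66.5, 63.9 and 55.9 TPM and 68.6 and 64.2 TPM under the Reg1Δ/Δ label. The latter varied little between libraries and between experiments. The log2 difference was −0.90 ± 0.14 (SE; 95% interval −1.22 to −0.58; adjusted p = 5.57e-04). It was −0.76 in the first experiment (adjusted p = 0.00787) and −1.12 in the second, which alone missed the threshold (adjusted p = 0.0776).

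The flavocytochrome genes thus differed unequally. Within libraries, the log2 ratio of Cybb to Cyba TPM averaged −2.47 in controls and −5.56 in the libraries labelled Reg1Δ/Δ, a difference of −3.09 ± 0.43 (SE; exact permutation within experiments, p = 0.0167, adjusted over 15 pairs of subunits p = 0.0228).

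Ncf1 (ENSMUSG00000015950, chr5:134220053-134229625, minus strand), which encodes the organizer p47phox, was at 30.7, 19.0 and 24.7 TPM in controls of the first experiment and at 27.1 and 34.7 TPM in those of the second. The libraries labelled Reg1Δ/Δ held 3.4, 3.4 and 8.2 TPM in the first experiment and 6.1 and 6.0 TPM in the second. Even the highest of them, replicate 3 of the first experiment, lay below the lowest control. The log2 difference was −2.18 ± 0.22 (SE; adjusted p = 3.58e-05) and, to 2 decimals, −2.18 in each experiment alone (adjusted p = 0.0024 and 0.0237).

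Ncf4 (ENSMUSG00000071715, chr15:78244801-78262580, plus strand), which encodes p40phox, was at 132.7, 148.4 and 77.7 TPM in controls of the first experiment and at 67.6 and 56.4 TPM in those of the second. The libraries labelled Reg1Δ/Δ held 17.01, 15.6 and 34.3 TPM in the first experiment and 15.1 and 15.6 TPM in the second. Replicate 3 of the first experiment was again the highest of these. Some myeloid transcripts stood higher in this library too, and others lower. Mpo was at 630.5 against 138.4 and 43.8 TPM in replicates 1 and 2, and Elane at 233.2 against 51.0 and 16.5 TPM. The summed TPM of 8 monocyte and macrophage markers was 195 against 48.5 and 51.2. Ly6c2 made up 175.8 TPM of that sum, whereas Lyz2 was lowest in this library (14.3 against 16.4 and 37.7 TPM). The sum of 10 neutrophil markers was 439 TPM, between the 207 and 632 TPM of the others. Within it S100a8 was lowest in this library (3.6 against 23.2 and 185.3 TPM), as were S100a9 and Ltf. The part of these transcripts in the Ncf1 and Ncf4 values was not tested. The log2 difference was −2.22 ± 0.25 (SE; adjusted p = 6.83e-05), with −2.41 and −1.94 in the experiments alone (adjusted p = 0.00233 and 0.0216). The log2 ratio of Ncf1 to Ncf4 differed by −0.11 ± 0.26 between genotypes (exact permutation p = 0.733), an SE that leaves room for an unequal change of either sign.

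Rac2 (ENSMUSG00000033220, chr15:78559167-78572783, minus strand), the blood cell Rac, was at 3092, 3176 and 2639 TPM in controls of the first experiment against 936, 818 and 899 TPM under the Reg1Δ/Δ label. These sums were the highest of the 6 genes there, but a transcript of 254 bases held most of them. By main coding transcript Rac2 (a mean of 97.7 TPM in these controls) stood below Rac1 (116.2 TPM). Its mean was also below that of Cyba (102.3 TPM), but the ranges of Rac2 and Cyba overlapped. In the second experiment the sums of Rac2 were at 288 and 518 TPM in controls against 195 and 129 TPM. Controls of the second experiment reached 0.136 of the mean of the first, and the next lowest such ratio was 0.518, for Ncf4. The log2 difference was −1.56 ± 0.19 (SE; adjusted p = 1.13e-04), with −1.74 in the first (adjusted p = 1.74e-04) and −1.28 in the second, where the 95% interval reached from −2.70 to 0.15 (adjusted p = 0.16).

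Rac1 (ENSMUSG00000001847, chr5:143503634-143528036, minus strand), the widely expressed Rac, had 232.7, 213.2 and 221.9 TPM in controls of the first experiment and 256.9 and 336.7 TPM in those of the second. The libraries labelled Reg1Δ/Δ held 173.4, 158.3 and 182.0 TPM and 237.2 and 206.7 TPM. The gap between the groups of the second experiment was narrower than the spread of its controls. The log2 difference was −0.39 ± 0.11 (SE; 95% interval −0.63 to −0.15; adjusted p = 0.0119), and 43.2% of tested genes had a more negative one. Taken alone, the first experiment gave −0.38 (adjusted p = 0.0396) and the second −0.41 (adjusted p = 0.251).

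In the first experiment alone all 6 subunits passed as lower, as did 38.3% of tested genes. In the second, with 2 libraries per group, Cybb, Ncf1 and Ncf4 passed, against 12.3% of tested genes, and Cyba, Rac1 and Rac2 did not. Of the 15 pairs of subunits, 11 had a ratio that differed between genotypes (exact permutation, adjusted p = 0.0228 each). The other pairs were Ncf1 with Ncf4, and Rac2 with Cyba, Ncf1 and Ncf4 (adjusted p = 0.733, 0.0892, 0.0625 and 0.077). The log2 ratio of Cyba to Rac2 differed by 0.65 ± 0.31 (SE), that of Ncf1 to Rac2 by −0.84 ± 0.31 and that of Ncf4 to Rac2 by −0.72 ± 0.32.

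**Figure D2:**
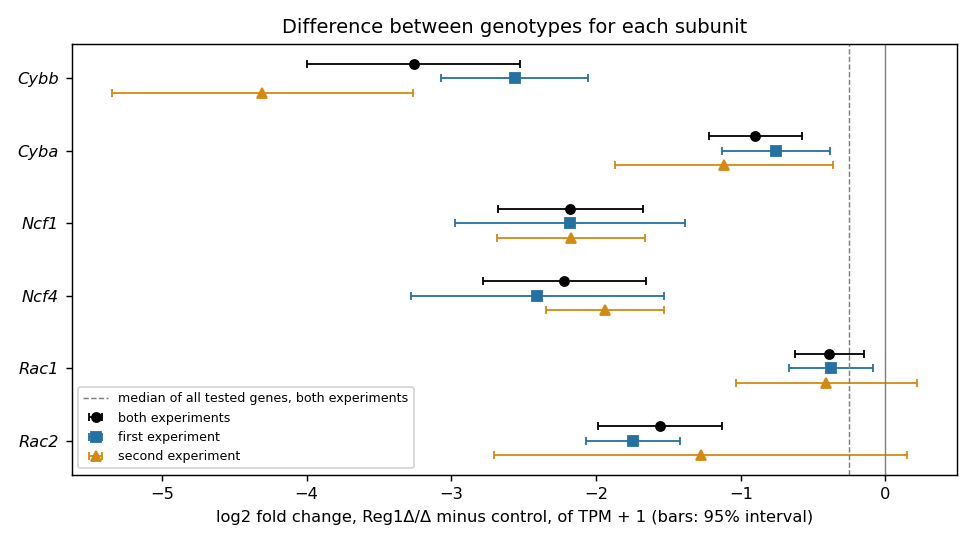
Log2 fold change of TPM + 1 (Reg1Δ/Δ minus control) of each subunit with its 95% interval from limma, for both experiments together (circles) and each alone (squares, triangles); the dashed line is the median of all tested genes, −0.25. Cybb lies farthest left, at −3.26, and the intervals of Rac1 and Rac2 in the second experiment cross 0.

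By mean TPM summed over the transcripts of a gene, which is scaled by transcript length, the order in controls of the first experiment was Rac2, Rac1, Ncf4, Cyba, Ncf1 and Cybb, and only the ranges of Ncf4 and Cyba overlapped among neighbours. Controls of the second experiment gave Rac2, Rac1, Cyba, Ncf4, Cybb and Ncf1, with an overlap of Rac2 and Rac1. Under the Reg1Δ/Δ label the order was Rac2, Rac1, Cyba, Ncf4, Ncf1 and Cybb, except that Rac1 stood above Rac2 in the second experiment, and no neighbours overlapped. By this measure Cybb was the scarcest of the 6 in both experiments under the Reg1Δ/Δ label. The place of Rac2 rests on the sums: by main coding transcript, described next, its mean under that label in experiment 1 was 28.7 TPM, below Rac1 (72.1 TPM) and Cyba (58.7 TPM).

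The gene sums mix transcripts of different kinds, and for several subunits the mix differed more between the experiments than between the genotypes. This was so for Rac2, whose full-length transcript of 3038 bases was at 100.2, 103.8 and 89.1 TPM in controls of the first experiment and at 154.8 and 196.0 TPM in those of the second, against 31.9, 26.1 and 28.2 TPM and 55.0 and 53.6 TPM under the Reg1Δ/Δ label. An annotated transcript of 254 bases held about 90% of the TPM of Rac2 in controls of the first experiment (2780, 2848 and 2372 TPM), but 116 and 258 TPM in those of the second. Its 238 coding bases, at chr15:78564863-78564972 and chr15:78561911-78562038 on the minus strand in GENCODE M21, are shown because most of the Rac2 signal of the first experiment was assigned to them.
Rac2 254-base transcript, coding part: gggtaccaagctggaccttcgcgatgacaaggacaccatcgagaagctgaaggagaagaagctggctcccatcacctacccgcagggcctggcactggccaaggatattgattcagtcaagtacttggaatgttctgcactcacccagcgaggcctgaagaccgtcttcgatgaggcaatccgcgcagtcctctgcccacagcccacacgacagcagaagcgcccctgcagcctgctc
The first 245 of its 254 bases also occur, unbroken, in the full-length transcript from base 477 on, so reads of this stretch fit both transcripts. The full-length transcript taken alone differed by −1.71 ± 0.13 on the log2 scale (limma over transcripts, adjusted p = 3.55e-05), with control to Reg1Δ/Δ ratios of 3.40 and 3.23 in the experiments.

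The main coding transcripts, taken as the protein-coding transcript of at least 500 bases with the highest mean TPM, gave a Rac2 to Rac1 ratio that was closer between experiments than that of the gene sums. It was 0.864, 0.851 and 0.804 in controls of the first experiment and 1.17 and 1.29 in those of the second. It was 0.461, 0.345 and 0.395 and 0.577 and 0.632 in the libraries labelled Reg1Δ/Δ. The groups did not overlap (exact permutation within experiments, two-sided, p = 0.0167, the smallest possible). From the gene sums, the mean ratio was 13.4 against 5.17 in the first experiment but 1.33 against 0.723 in the second, with the same p.

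**Figure D3:**
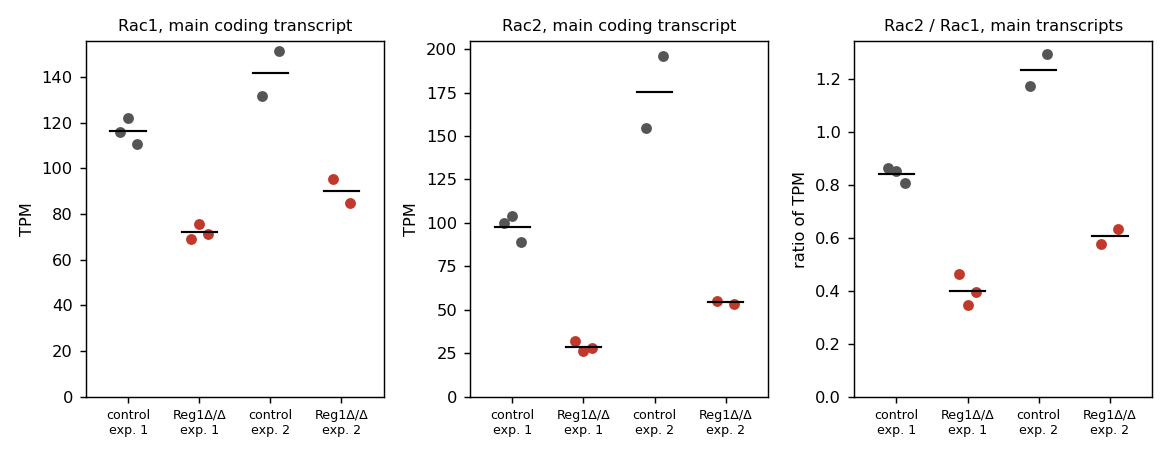
TPM of the main coding transcripts of Rac1 and Rac2 and their ratio in every library; points are libraries and lines group means, n = 3 and n = 2 per group. Under the Reg1Δ/Δ label the ratio lies between 0.345 and 0.632, below all controls, which start at 0.804.

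For Rac1, the coding transcript of 2325 bases was at 116.0, 122.0 and 110.8 TPM and 131.8 and 151.6 TPM in controls, against 69.2, 75.9 and 71.3 TPM and 95.2 and 84.7 TPM under the Reg1Δ/Δ label (log2 difference −0.67, adjusted p = 0.00355). A processed transcript of 585 bases, which has no annotated reading frame, was at 90.0 to 115.3 TPM and 116.9 to 178.8 TPM in controls, against 79.2 to 107.4 TPM and 115.6 to 134.3 TPM (−0.16, adjusted p = 0.523). The groups overlapped for this transcript in both experiments. The coding share of Rac1 TPM averaged 53.0% and 50.7% in controls and 43.0% and 43.5% under the Reg1Δ/Δ label (exact permutation p = 0.0167, adjusted over the 6 subunits p = 0.1).

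Transcripts that retain an intron took up part of both cytosolic subunits. They held 75.3% of Ncf4 TPM in controls of experiment 1 but 17.5% in the controls of experiment 2, against 81.0% and 55.7% under the Reg1Δ/Δ label. The main coding transcript of Ncf4, of 1464 bases, was at 14.9, 17.7 and 9.2 TPM and 47.9 and 44.7 TPM in controls, against 1.6, 1.1 and 4.5 TPM and 7.1 and 6.5 TPM. It differed by −2.38 on the log2 scale (adjusted p = 4.01e-04), with ratios of 5.86 and 6.82 in the experiments. The coding share of Ncf4 was lower on average under the Reg1Δ/Δ label, with an exact permutation p of 0.0333 and an adjusted p of 0.1. For Ncf1, retained introns held 52.7% of TPM in controls of experiment 1 but 5.92% in the controls of experiment 2. The latter is the mean of 0% and 11.8%. Under the Reg1Δ/Δ label they held 49.7% and 0%, and a nonsense-mediated decay transcript held 16.2% in experiment 2. The main coding transcript of Ncf1 was at 7.7 to 12.3 TPM and 22.03 to 34.7 TPM in controls, against 1.6 to 3.6 TPM and 4.3 to 5.8 TPM (−2.02, adjusted p = 3.71e-04).

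Nearly all of the Cyba TPM was coding, whereas a nonsense-mediated decay transcript held a mean of 21.7% of the Cybb TPM in controls of experiment 1 and 32.9% under the Reg1Δ/Δ label there, with 52.2% in 1 library. In experiment 2 it held 0% and 3.91%. The coding share of Cybb did not pass the test between genotypes (exact permutation p = 0.35, adjusted p = 0.42). The Cybb transcript of 4752 bases was at 5.4, 7.9 and 5.3 TPM and 21.5 and 28.3 TPM in controls, against 0.3, 1.1 and 1.2 TPM and 1.1 and 1.0 TPM under the Reg1Δ/Δ label. It fell by 2.65 on the log2 scale (adjusted p = 5.8e-04), with the controls above in both experiments. The Cyba transcript of 744 bases carried nearly all of the gene's TPM and differed by −0.91 (adjusted p = 0.0052). Of the 28 transcripts, 16 had enough TPM to be tested and 10 passed as lower, against 14.9% of 31937 tested transcripts, and none passed as higher. The other 12 were not tested.

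**Figure D4:**
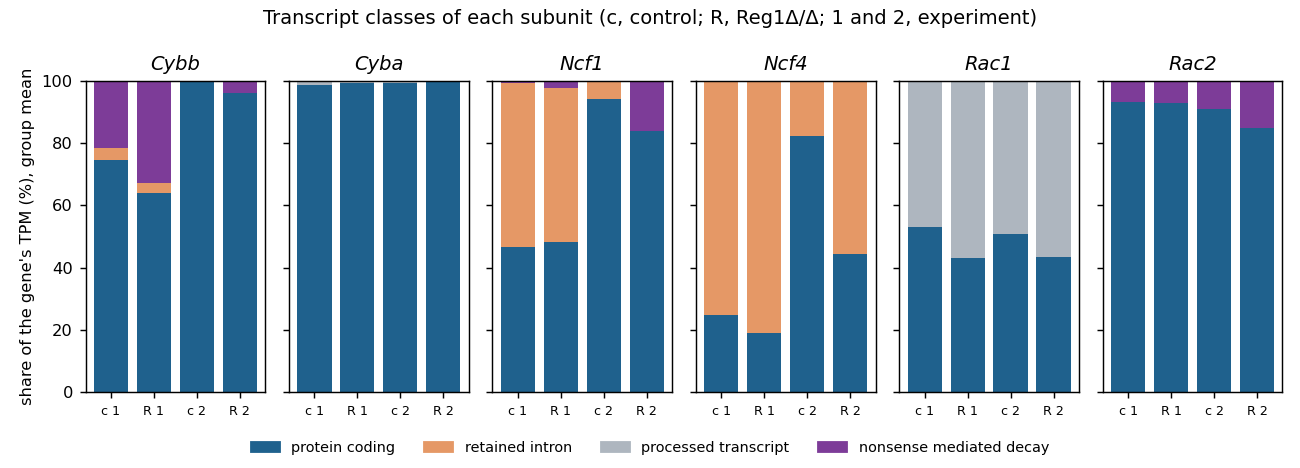
Share of each subunit gene's TPM (percent, group mean) held by coding, retained-intron, processed and nonsense-mediated decay transcripts in controls (c) and libraries labelled Reg1Δ/Δ (R) of experiments 1 and 2. Retained introns held 75.3% of Ncf4 in controls of experiment 1 but 17.5% in the controls of experiment 2.

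Of 3 genes for partners of the oxidase, 2 fell, against 37.9% of all tested genes, and 1 of these calls was lost under other settings. Hvcn1, the proton channel that balances the charge moved by the oxidase, fell by 1.77 (adjusted p = 3.13e-05). Cybc1, a chaperone of the flavocytochrome, fell by 0.46 (adjusted p = 0.0354), with groups that overlapped in the second experiment and adjusted p of 0.219 under quantile normalization and 0.499 under median-of-ratios scaling. Its adjusted p was 0.0512 to 0.0891 when any 1 of 7 of the libraries was left out, and 0.0793 with the replicate block. Rap1a, a GTPase found with the flavocytochrome, gave −0.44 (adjusted p = 0.112). None of the 5 other NADPH oxidase genes in the files (Nox1, Nox4, Noxa1, Noxo1 and Duox1) reached 1 TPM in 5 libraries, so none was tested. Noxo1 ranged from 0.6 to 10.8 TPM in controls, Noxa1 from 0.2 to 2.6 TPM and Nox4 from 0.5 to 2.5 TPM.

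The regulators of Rac are read against the 37.9% of all tested genes that fell. Of 8 exchange factors, which load Rac with GTP, 7 fell: Vav3 (−3.08), Elmo1 (−2.65), Dock2 (−2.10), Vav2, Prex1, Tiam2 and Vav1. Elmo1, which acts in a complex with Dock proteins, was at 87.1 to 106.3 TPM and 30.1 to 36.2 TPM in controls, against 10.8 to 14.1 TPM and 4.5 to 7.6 TPM. Tiam2 did not pass under quantile normalization (−0.26, adjusted p = 0.0536). Tiam1 gave −0.87 (adjusted p = 0.0642). It passed as lower when a TPM of at least 1 was required in every library (adjusted p = 0.0398), but in neither experiment alone (adjusted p = 0.263 and 0.15). Of 5 inhibitors of Rac, 4 fell, among them the GTPase-activating Abr (−2.43) and Bcr (−1.85) and the blood cell RhoGDI Arhgdib (−1.31), whereas Racgap1 fell by 0.35 and reached −0.0045 under median-of-ratios scaling. Racgap1 did not pass when any 1 of 7 of the libraries was left out (adjusted p = 0.0653 to 0.113) or with the replicate block (adjusted p = 0.102). Arhgdia, the widely expressed RhoGDI, gave 0.09 (adjusted p = 0.476). Of the related GTPases, Cdc42 fell by 0.42 (adjusted p = 0.00452; 0.551 under median-of-ratios scaling) and Rhog gave 0.0045 (adjusted p = 0.972).

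Of 9 kinases that phosphorylate oxidase subunits or act in the signalling upstream, 8 fell, against 37.9% of all tested genes. Prkcb, a protein kinase C that phosphorylates p47phox, was at 9.8 to 21.4 TPM and 28.5 to 28.9 TPM in controls and at 0.2 to 0.6 TPM and 0.7 TPM under the Reg1Δ/Δ label (−3.83, adjusted p = 7.05e-07). Pik3cg (−2.13), Prkca (−2.09), Syk (−1.93), Prkcd (−1.83), Pak1 (−1.62), Pik3cd (−1.42) and Pak2 (−0.68) were the others. Pak2 did not pass under quantile normalization (−0.29, adjusted p = 0.0808). Btk gave 0.19 (adjusted p = 0.0987).

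Genes for enzymes that act on superoxide and peroxide, the products of the oxidase, differed in both directions. Of the 14 tested, 8 rose: Prdx6 (1.01), Prdx3 (0.90), Prdx2 (0.86), Sod2 (0.52), Gpx4 (0.51), Sod1 (0.44), Txn1 (0.36) and Gpx1 (0.33). Of all tested genes 15% passed as higher. Gpx1 and Txn1 did not pass under quantile normalization (adjusted p = 0.0816 and 0.0579). Gpx1 also missed the threshold when any 1 of 7 of the libraries was left out (adjusted p = 0.0685 to 0.104). Sod1, Txn1 and Gpx1 passed in neither experiment alone, and for Sod1 (adjusted p = 0.161 and 0.0533) the groups overlapped in the first. Sod1 stood at 57.2 to 77.1 TPM in controls of the first experiment but at 1056 and 948 TPM in those of the second. Prdx6 was at 433 to 578 TPM and 369 to 372 TPM in controls and at 1003 to 1212 TPM and 640 to 747 TPM under the Reg1Δ/Δ label. Prdx5 fell by 0.74 (adjusted p = 1.11e-04), and Cat, catalase, fell by 0.32 (adjusted p = 0.031) but reached 0.02 under median-of-ratios scaling and did not pass when any 1 of 6 of the libraries was left out. Prdx4 (0.23), Prdx1 (−0.10) and Txnrd1 (−0.32) did not pass (adjusted p = 0.0586, 0.403 and 0.0759). Prdx4 passed as higher without a filter on low values (adjusted p = 0.0231). Mpo, the granule enzyme that turns peroxide into hypochlorous acid, gave −1.77 (adjusted p = 0.0683). Taken alone, experiment 1 gave −2.95 for Mpo (adjusted p = 0.0295) and experiment 2 gave 0.01, with 320.5 and 317.6 TPM in controls there against 364.2 and 283.4 TPM. The difference between the experiments did not pass (adjusted p = 0.37). Of genes that supply NADPH, G6pdx rose by 0.75 (adjusted p = 0.00233), Idh1 fell by 1.21 (adjusted p = 1.25e-04) and Pgd gave −0.10 (adjusted p = 0.469).

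Of 7 transcription factors known to act on oxidase genes or in the myeloid lineage, 6 fell. Spi1, which encodes PU.1, was at 105.9 to 163.9 TPM and 74.4 to 78.0 TPM in controls, against 17.2 to 32.8 TPM and 11.2 to 11.7 TPM (−2.54, adjusted p = 4.92e-06). Irf8 (−2.08), Cebpe (−1.41), Elf1 (−1.17), Cebpa (−0.84) and Cebpb (−0.71) fell too. Under quantile normalization Cebpe (−0.70), Cebpa (−0.05) and Cebpb (−0.21) did not pass (adjusted p = 0.124, 0.711 and 0.539). Cebpb also missed the threshold under median-of-ratios scaling (adjusted p = 0.212), with the replicate block (adjusted p = 0.0724) and when any 1 of 6 of the libraries was left out (adjusted p = 0.056 to 0.0805). Irf1 gave 0.44 (adjusted p = 0.0592). It passed as higher when a TPM of at least 1 was required in every library (adjusted p = 0.0422). It also passed in the second experiment alone (adjusted p = 0.0329), but not in the first (adjusted p = 0.312). Over all these lists together, 31 of 51 tested genes fell and 9 rose, against 37.9% lower and 15% higher of all tested genes, with a median log2 difference of −0.84 against −0.25 for all tested genes. Both the counts and this background move with the scaling. Median-of-ratios scaling called 26 of these genes as lower and 15 as higher, against 3425 and 3973 of the 12874 tested genes. Quantile normalization called 25 as lower and 9 as higher, against 2636 and 3861 of all tested genes.

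**Figure D5:**
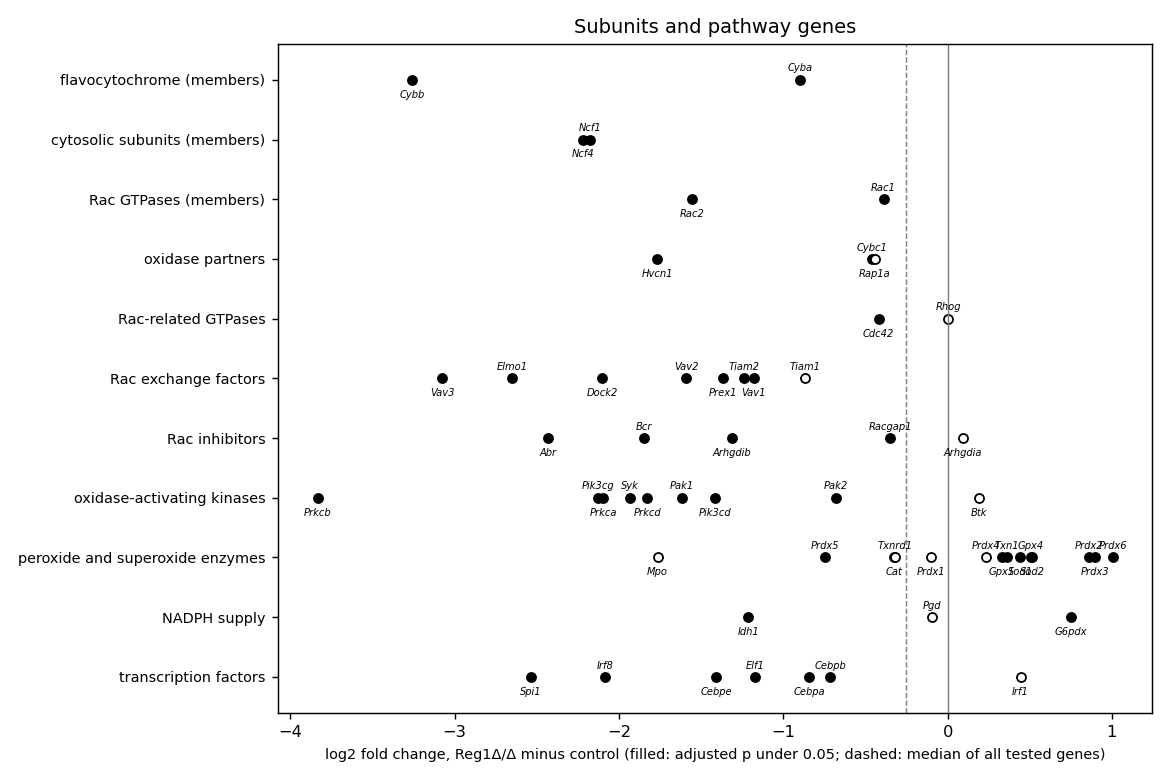
Log2 fold change (Reg1Δ/Δ minus control, both experiments, limma) of each subunit and each tested gene of the pathway lists, 1 point per gene; filled points had an adjusted p under 0.05 and the dashed line is the median of all tested genes. The partners, Rac regulators and kinases lie mostly left of the line, and the 8 enzymes of superoxide and peroxide that passed as higher lie right of 0.

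Transcripts of mature myeloid cells, in which the oxidase is abundant, moved in the same direction as the subunits. The summed TPM of 10 neutrophil markers was 2064 to 4593 in controls of the first experiment and 11586 to 13481 in those of the second, against 207 to 632 and 635 to 645 under the Reg1Δ/Δ label. Of these, 8 fell, against 37.9% of all tested genes, led by S100a9 (−5.62), S100a8 (−5.25) and Ltf (−5.25), whereas Elane (−1.45) and Ctsg (−1.40), made in early granulocytes, did not pass (adjusted p = 0.111 and 0.113). Taken alone, experiment 1 gave −2.52 for Elane and −2.45 for Ctsg (adjusted p = 0.0483 for both), and experiment 2 gave 0.16 and 0.17 (adjusted p = 0.682 and 0.657). The difference between the experiments did not pass for either gene (adjusted p = 0.42 and 0.416). The sum of 8 monocyte and macrophage markers was 485 to 662 and 853 to 1009 TPM in controls, against 48.5 to 195 and 87.3 to 111 TPM, and all 5 that could be tested fell. Of the 5, Ly6c2 passed narrowly (adjusted p = 0.0489), with groups that overlapped in the first experiment. It passed in neither experiment alone (adjusted p = 0.0782 and 0.0948). The sum of 8 B lineage markers was 133 to 921 and 858 to 1000 TPM in controls and 18.1 TPM or less under the Reg1Δ/Δ label, where Pax5 and Ms4a1 were at or near 0. The sum of 5 T lineage markers, led by Lck, was 30.7 to 57.0 TPM in controls and 4.43 TPM or less under the Reg1Δ/Δ label. Of the erythroid markers, Klf1 (1.80) and Epor (1.44) rose and the globin genes Hbb-bs (−3.19) and Hba-a1 (−2.50) fell. The only dendritic marker tested, Bst2, rose (0.59). The part of these cell types, and of the progenitor transcripts Cd34 and Flt3, in the lower subunit mRNAs was not tested.

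The similarity of patterns was described over the 10 libraries by Pearson correlation of log2(TPM + 1) after the mean of each experiment had been subtracted, which leaves the genotype difference in. Among the subunits r ranged from 0.73 (Cyba with Rac1) to 0.96 (Ncf1 with Ncf4). The protein-coding genes most like each subunit were Ptk7, Mansc1 and Fscn1 for Cybb, Reck, Cox14 and Commd7 for Cyba, and Psap, Serpine2 and Sh2b3 for Ncf1. For Ncf4 they were Leprotl1, R3hdm2 and Map1lc3a, for Rac1 Soat1, AI846148 and Gys1, and for Rac2 Zbed3, Accs and Snap47. All of these had r of 0.98 or more (n = 10) and a negative log2 difference.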

How the data were processed

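RNA of sorted CD34- HSCs from 5 Reg1Δ/Δ and 5 control mice was analysed. The cDNA kit is SMART-Seq v4 per the labels and another version in the study's methods, and neither source assigns a kit to an experiment. The authors aligned the reads to GRCm38.p4 with STAR 2.4.2a, quantified transcripts with Salmon 0.9.1 against GENCODE M17, and deposited them as log2 values of TPM plus 1. The log2 values were turned back into TPM and summed per gene identifier. Depth is unknown. The header of 1 file (Reg1Δ/Δ, second experiment, replicate 2) carried the name of replicate 1, and its values differed. No libraries were identical (highest r = 0.962).

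The 12874 genes that reached 1 TPM in 5 or more of the 10 libraries were tested with limma 3.58.1 (lmFit and eBayes, R 4.3.3) on log2(TPM + 1), with the experiment as covariate, with Benjamini-Hochberg adjustment over all tested genes. Single values were tested by exact two-sided permutation within experiments, and the difference between experiments by limma's interaction. The fit was tested on simulated data. Coordinates and the Rac2 sequence are from GENCODE M21 (GRCm38). Cybc1 was matched by gene identifier.

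The members and gene lists were chosen with earlier results of these data known. Named genes were the subunits, Zc3h12a, genes of the lists and the 3 protein-coding genes most correlated with each subunit; some genes are not reported here. Alternatives were other filters, pseudocount, covariates, scalings and transcript classes, each experiment alone, a replicate block and leaving out each library.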

Additional observations from a re-analysis of the deposited data

How the results depend on the processing

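Each of the 6 subunits kept its direction under all alternatives that gave a value; Cybb gave none when a TPM of at least 1 was required in every library. Cybb ranged from −4.31 to −2.56 on the log2 scale, Ncf4 from −2.75 to −1.88, Ncf1 from −2.37 to −1.70, Rac2 from −1.86 to −1.20, Cyba from −1.12 to −0.55 and Rac1 from −0.68 to −0.04. Cybb, Ncf1 and Ncf4 passed under all of them. The second experiment alone called 3 of the 6 subunits as lower, 1581 tested genes as lower and 452 as higher, and 20 pathway genes as lower and 2 as higher. Without the experiment covariate Rac1 and Rac2 did not pass (adjusted p = 0.131 and 0.23), 3052 genes were lower and 716 higher, and 5 pathway genes were higher. Quantile normalization called 2636 genes as lower and 3861 as higher, and median-of-ratios scaling 3973 genes and 15 pathway genes as higher. The share of lower genes among those called was 71.6%, and 40.6% and 46.3% under these scalings. Of 40 pathway genes called, Cat alone changed sign (0.02, median-of-ratios); 19 lost their call in the second experiment alone, 11 without the experiment covariate, 9 under quantile normalization, 6 in the first experiment alone, 4 under median-of-ratios scaling (not counting Cat), 4 without a filter on low values and 3 with the replicate block (Cybc1, Racgap1 and Cebpb). Leaving out 1 library lost 2 to 5 of these calls. Some pathway genes not called in the main fit passed under an alternative, among them Tiam1, Irf1, Prdx4, Btk and Mpo. Leaving out each library in turn changed no call of a subunit, and Rac1 then ranged from −0.45 to −0.33. Summing transcripts of at least 500 bases or weighting by length, both chosen after seeing the data, changed no call of a subunit either.

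The values did not settle whether the replicate numbers pair the libraries. Deviations of same-numbered libraries correlated at 0.03, 0.18 and 0.07 in the first experiment. There, control replicate 1 correlated better with another number (0.06), and control replicates 2 and 3 best with their own. In the second experiment the value was −0.05, but with 2 libraries per group the deviations mirror each other and cannot show a pairing. With the replicate block, 6 subunits, 4545 genes as lower and 1703 as higher passed. TPM gives no depth, so counting error limits the lowest values, such as Cybb near 1 TPM, by an unknown amount.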
